A study of Homo sapiens with 6 samples.

Results

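The bone morphogenetic protein (BMP) ligands BMP2, BMP4 and BMP7, their modulators BAMBI and GREM1, the type I receptor BMPR1A and the inhibitor of DNA binding genes ID1, ID2, ID3 and ID4 were examined in PC3 cells after knockdown of TTC3, which encodes an E3 ubiquitin ligase. These 10 genes were taken by symbol from the 62700 rows of the gene count table, and each symbol matched 1 row. PC3 is an androgen-independent cell line derived from a bone metastasis of human prostate cancer. The 3 libraries of TTC3 knockdown cells carry an shRNA against TTC3, and the 3 control libraries carry a control shRNA (shNC in the titles) and are labelled WT for genotype. All cells were cultured in Ham's F-12K with serum and antibiotics, and total RNA depleted of ribosomal RNA was sequenced as strand-specific libraries. The labels give neither the hairpin sequences, nor the time after knockdown, nor whether the cells were a pool or a clone. They also do not say that replicates were grown separately, and the spread on which p-values rest may therefore be technical.

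BMPs are secreted dimers that bring type I and type II serine/threonine kinase receptors together, and the receptors phosphorylate SMAD1, SMAD5 and SMAD9, which enter the nucleus with SMAD4. Gremlin 1 and noggin bind the ligands outside the cell, and BAMBI is a membrane pseudoreceptor without a kinase domain that dampens signalling and is itself induced by it. ID1, ID2 and ID3 are well known transcriptional targets, and ID proteins lack a DNA-binding region and sequester E proteins such as TCF3. In the prostate, BMP signalling is studied for its part in bone metastasis.

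Each library held 143246356 to 155526861 estimated counts. TTC3 itself was at 228, 183 and 178 CPM (counts scaled to library size with TMM factors) in the TTC3 shRNA libraries, against 695, 684 and 680 CPM in the control libraries. That is 28.6% of the control mean, a log2 fold change of -1.81 ± 0.10 (SE; edgeR quasi-likelihood test, adjusted p = 5.65e-05), and TTC3 shRNA replicate 1 kept the most. That library also differed in composition from TTC3 shRNA replicates 2 and 3. Mitochondrially encoded RNAs took 6.29%, 3.73% and 3.54% of counts in TTC3 shRNA replicates 1, 2 and 3 and 5.29% to 5.53% in the control libraries. The small noncoding RNAs RN7SL1, RN7SL2 and RN7SK took 4.93%, 8.65% and 10.5% in the TTC3 shRNA libraries, against 5.71% to 6.29% in the control libraries. The log2 ratio to the control mean changed by -0.03, -0.17 and -0.21 per doubling of gene length in TTC3 shRNA replicates 1, 2 and 3. In control replicates 1, 2 and 3, set against their own mean, it changed by 0.006, -0.002 and -0.004. By length trend and by these noncoding RNAs, replicate 1 was the TTC3 shRNA library nearest to the control libraries. PC3 markers were present: the keratin KRT8 averaged 166 CPM in TTC3 shRNA and 165 CPM in control cells, VIM (vimentin) 1634 and 1238 CPM, and KLK3, which encodes prostate-specific antigen, was at 0 in all 6 libraries. Of 10 markers of fibroblasts, endothelium and leukocytes, the endothelial CDH5 and the T cell gene CD3E had no counts. The summed level of the list was 135 to 173 CPM in TTC3 shRNA libraries and 52.0 to 56.6 CPM in control libraries, of which COL1A1 (75.9 and 19.0 CPM), PDGFRA (51.8 and 16.1 CPM) and CD68 (28.6 and 14.1 CPM) made up the most. Other markers of the list were lower or near 0: PECAM1 averaged 3.00 CPM in TTC3 shRNA and 4.99 CPM in control libraries and LUM 0.203 and 0.415 CPM, PTPRC had 3 and 69 counts and DCN 12 and 14 counts. The length trend was removed in an alternative fit, and the part of the other differences in the results below was not tested. In bulk RNA, fewer cells of a type and less RNA per cell cannot be told apart.

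Of the 10 genes, BAMBI, GREM1 and BMP4 were lower after TTC3 knockdown, by 5.54-fold, 3.13-fold and 2.41-fold, while ID3 and ID2 were higher, by 3.27-fold and 2.51-fold. BMP2, ID1 and BMPR1A did not pass the test, and BMP7 and ID4 were too low to be tested. Of all 24325 genes tested, 33.6% passed an adjusted p of 0.05, with 15.7% higher and 17.8% lower in TTC3 shRNA cells, so calls were common in this comparison. For 5 of the 8 tested genes, the same 5, the groups of libraries did not overlap, against 50.3% of all genes tested (23.3% higher and 27.0% lower in TTC3 shRNA cells). A change of at least 2-fold that passed the threshold was rarer, at 2.92% of all genes for higher and 8.55% for lower, and all 5 called genes exceeded that size. The median log2 fold change of the 8 genes was -0.15, against -0.02 over all genes tested.

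**Figure D1:**
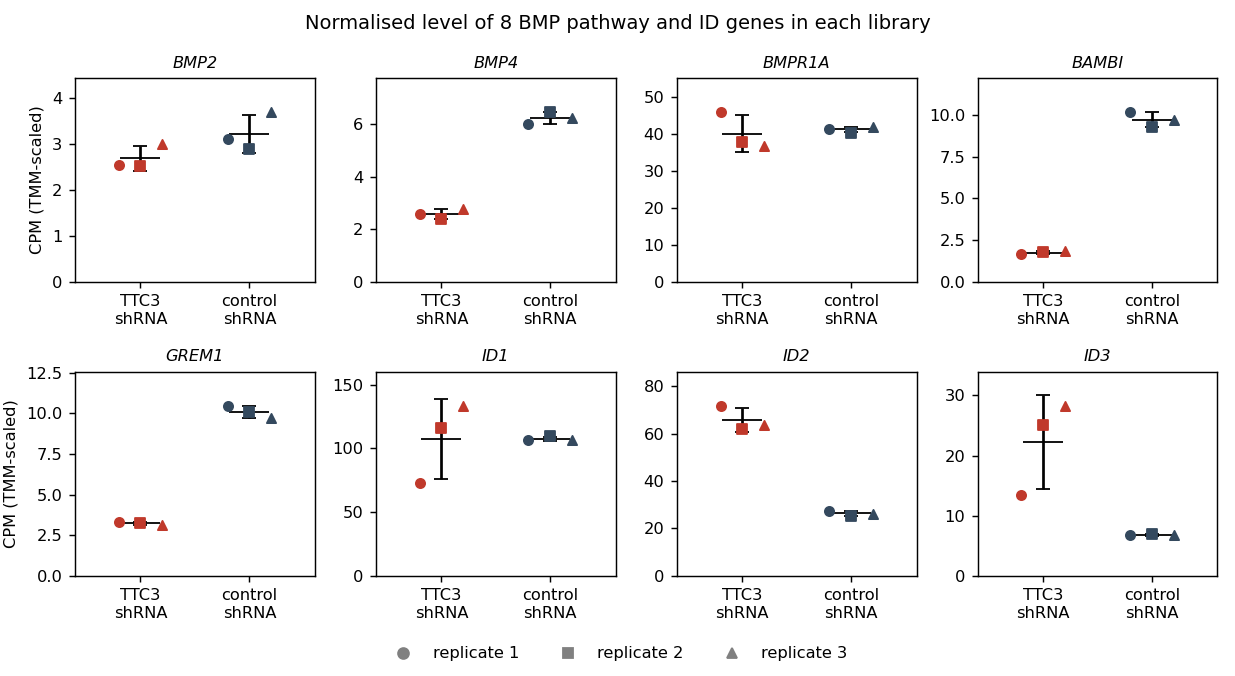
Level (CPM, linear axes from 0) of the 8 tested genes in every library, TTC3 shRNA left of control shRNA, with lines at the mean and bars of 1 SD. BAMBI, GREM1 and BMP4 lie lower and ID2 and ID3 higher in TTC3 shRNA libraries, and ID1 spreads from 72.7 to 133 CPM there against 106 to 109 CPM in control libraries.

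A promoter window of each of the 5 genes that passed the test is shown because these are the genes whose RNA differed, in both directions. RefSeq (GRCh38.p14) gave windows from 250 bases before to 50 after a gene start for 8 of the 10 genes, 11 windows in all, of which BMP4 has 3 and GREM1 has 2, at different starts. For BMP4 and GREM1 the window printed is the one that holds GGCGCC, chosen after the motif search, and their other windows matched none of the motifs. Capitals mark matches on either strand to GGCGCC, a GC-rich element bound by BMP-activated SMADs, to GTCTAGAC, the palindromic SMAD element, to CCAAT, the NF-Y box, or to TATAAA, the TATA box. The windows are chr10:28677271-28677570 (plus strand) for BAMBI, chr15:32717754-32718053 (plus) for GREM1, chr14:53955001-53955300 (minus) for BMP4, chr2:8681806-8682105 (plus) for ID2 and chr1:23559452-23559751 (minus) for ID3.
BAMBI: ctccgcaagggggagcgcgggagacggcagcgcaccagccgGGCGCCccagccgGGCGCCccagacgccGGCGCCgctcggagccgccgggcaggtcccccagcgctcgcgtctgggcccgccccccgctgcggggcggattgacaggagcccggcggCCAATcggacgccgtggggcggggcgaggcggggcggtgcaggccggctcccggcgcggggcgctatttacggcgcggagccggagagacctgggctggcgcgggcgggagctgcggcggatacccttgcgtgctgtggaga
GREM1: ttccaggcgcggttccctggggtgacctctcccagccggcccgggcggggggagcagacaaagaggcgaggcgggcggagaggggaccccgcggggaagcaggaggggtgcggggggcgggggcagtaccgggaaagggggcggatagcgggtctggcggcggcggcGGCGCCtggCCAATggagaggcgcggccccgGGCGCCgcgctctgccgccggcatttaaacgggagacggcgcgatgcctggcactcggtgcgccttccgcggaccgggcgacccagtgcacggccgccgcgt
BMP4: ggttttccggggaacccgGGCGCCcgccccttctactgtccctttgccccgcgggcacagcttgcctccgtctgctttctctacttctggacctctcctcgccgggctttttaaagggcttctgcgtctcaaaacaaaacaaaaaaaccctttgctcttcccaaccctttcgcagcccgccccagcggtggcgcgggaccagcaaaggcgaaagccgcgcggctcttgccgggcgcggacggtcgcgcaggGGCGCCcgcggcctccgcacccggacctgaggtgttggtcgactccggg
ID2: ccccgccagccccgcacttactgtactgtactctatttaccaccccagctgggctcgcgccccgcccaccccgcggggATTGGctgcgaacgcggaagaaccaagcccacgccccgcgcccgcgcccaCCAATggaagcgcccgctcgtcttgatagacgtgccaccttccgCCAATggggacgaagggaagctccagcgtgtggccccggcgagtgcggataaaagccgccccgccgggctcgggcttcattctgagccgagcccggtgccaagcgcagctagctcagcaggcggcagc
ID3: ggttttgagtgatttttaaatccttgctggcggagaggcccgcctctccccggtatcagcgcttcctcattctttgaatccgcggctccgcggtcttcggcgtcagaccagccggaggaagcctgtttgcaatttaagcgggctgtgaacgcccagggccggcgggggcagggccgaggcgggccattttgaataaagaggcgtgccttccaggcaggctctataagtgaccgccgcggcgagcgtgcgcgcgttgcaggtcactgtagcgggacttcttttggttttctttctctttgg

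GGCGCC occurred in 3 of the 11 windows, the window of BAMBI (3 matches), 1 of the 2 of GREM1 (2 matches) and 1 of the 3 of BMP4 (2 matches), and it occurs in 19.2% of 35116 windows of this length. No GGCGCC was found in the windows of ID1, ID2, ID3, ID4 and BMPR1A, and sequence outside the windows was not searched. The CCAAT box occurred in 5 windows, with 3 matches in that of ID2, against 34.6% of all windows. TATAAA occurred in those of ID1 (on both strands, overlapping), ID4 and BMPR1A, against 11.5%. No match overlapped one of another motif. GTCTAGAC was in none of the 11 and in 0.202% of all windows. These matches describe letters and no binding was measured.

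Among the ligands, BMP4, a classical osteoinductive and ventralising factor (ENSG00000125378.16, hg38 chr14:53949736-53958761, minus strand), was at 2.57, 2.39 and 2.79 CPM in TTC3 shRNA libraries and 6.02, 6.45 and 6.22 CPM in control libraries. Every TTC3 shRNA library was below every control library. The means of 2.58 ± 0.200 and 6.23 ± 0.216 CPM (SD, n = 3 each) gave a log2 fold change of -1.27 ± 0.11 (SE, edgeR, adjusted p = 0.000339). BMP2, the close relative of BMP4 (ENSG00000125845.7, chr20:6767664-6780280, plus strand), was at 2.55, 2.51 and 3.00 CPM in TTC3 shRNA and 3.10, 2.88 and 3.68 CPM in control libraries. The groups overlapped, and the log2 fold change of -0.26 ± 0.15 (95% interval -0.61 to 0.09, edgeR adjusted p = 0.215) did not pass the test. BMP7, known for kidney and bone development (ENSG00000101144.13), was close to absent, with 6, 3 and 8 estimated counts in TTC3 shRNA and 5, 0 and 0 in control libraries. At that depth no difference in BMP7 could be tested.

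The type I receptor BMPR1A (ENSG00000107779.15, chr10:86756601-86932838, plus strand) was at 46.0, 37.9 and 36.7 CPM in TTC3 shRNA libraries and 41.5, 40.5 and 42.0 CPM in control libraries. TTC3 shRNA replicate 1 was the highest of all 6 and the other two the lowest. The log2 fold change was -0.04 ± 0.09 (95% interval -0.26 to 0.18, edgeR adjusted p = 0.777), and without TTC3 shRNA replicate 1 it was -0.13 (adjusted p = 0.0160). In the fit without that library 54.1% of all genes tested passed, against 33.6% with all libraries. BMPR1A has the pseudogenes BMPR1AP1 and BMPR1AP2, with log2 fold changes of -0.33 (edgeR adjusted p = 0.397) and 0.10 (adjusted p = 0.660), so reads may be split between copies.

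Of the modulators, BAMBI (ENSG00000095739.11, chr10:28677342-28682939, plus strand) was at 1.64, 1.77 and 1.85 CPM in TTC3 shRNA and 10.2, 9.30 and 9.70 CPM in control libraries. The highest TTC3 shRNA library stayed far under the lowest control library. Its log2 fold change was -2.47 ± 0.11 (SE, edgeR, adjusted p = 1.71e-05), with a 95% interval of -2.72 to -2.21. GREM1, which encodes the secreted antagonist gremlin 1 of BMP2 and BMP4 (ENSG00000166923.12, chr15:32717974-32745107, plus strand), was at 3.31, 3.22 and 3.12 CPM in TTC3 shRNA and 10.5, 10.1 and 9.70 CPM in control libraries. Replicates lay close together, with a highest-to-lowest ratio of 1.06 in TTC3 shRNA and 1.08 in control libraries. The log2 fold change of GREM1 was -1.65 ± 0.09 (95% interval -1.87 to -1.43, edgeR adjusted p = 5.27e-05). The antisense gene AC090877.2 overlaps GREM1 in GENCODE 29. GREM1-AS1, an antisense gene by its symbol in the counts, was also lower, with a log2 fold change of -1.03 ± 0.26 (edgeR adjusted p = 0.0236). Whether AC090877.2 and GREM1-AS1 are the same gene under different annotation releases was not checked. How strand was treated in counting is not known here, so reads of GREM1 and an overlapping antisense gene cannot be told apart.

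The ID genes did not move as one. ID2 (ENSG00000115738.10, chr2:8678845-8684453, plus strand) was at 71.6, 62.1 and 63.7 CPM in TTC3 shRNA and 27.4, 25.3 and 26.1 CPM in control libraries. All TTC3 shRNA libraries were above all control libraries, TTC3 shRNA replicate 1 included. The means of 65.8 ± 5.11 and 26.3 ± 1.07 CPM gave a log2 fold change of 1.32 ± 0.08 (95% interval 1.14 to 1.51, edgeR adjusted p = 5.74e-05). The antisense gene ID2-AS1 overlaps ID2 and had 1312, 779 and 661 counts in TTC3 shRNA and 730, 652 and 663 counts in control libraries, which did not pass the test (log2 fold change 0.54, edgeR adjusted p = 0.110).

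ID3 (ENSG00000117318.9, chr1:23557918-23559794, minus strand) was at 13.4, 25.0 and 28.2 CPM in TTC3 shRNA and 6.71, 7.01 and 6.68 CPM in control libraries. Every TTC3 shRNA library exceeded the control range, but replicate 1 rose least. The means of 22.2 ± 7.77 and 6.80 ± 0.183 CPM gave a log2 fold change of 1.71 ± 0.26 (95% interval 1.10 to 2.31, edgeR adjusted p = 0.00308), and without replicate 1 of TTC3 shRNA it was 1.99 (adjusted p = 8.01e-07). ID1, the ID gene with the highest level per transcript length (ENSG00000125968.9, chr20:31605283-31606515, plus strand), was at 72.7, 116 and 133 CPM in TTC3 shRNA and 107, 109 and 106 CPM in control libraries. In CPM, TTC3 shRNA replicate 1 was below all control libraries and replicates 2 and 3 above them. The group means were equal on that scale, at 107 ± 31.1 CPM in TTC3 shRNA and 107 ± 1.70 CPM in control libraries. The 95% interval of the ID1 log2 fold change ran from -0.47 to 0.47 (edgeR adjusted p = 0.995). Without TTC3 shRNA replicate 1, ID1 passed the test with a log2 fold change of 0.23 (edgeR adjusted p = 0.00973), as did 54.1% of all genes tested, against 33.6% with all libraries. With the trend on gene length removed, the ID1 log2 fold change was -0.33 (edgeR adjusted p = 0.0894). Counts were also divided by transcript length and scaled to their sum over transcripts with a length in each library (TPM). ID1 was then at 120, 146 and 151 TPM in TTC3 shRNA and 178, 179 and 173 TPM in control libraries. Every TTC3 shRNA library was thus below every control library in TPM, so the direction for ID1 depended on the scaling. The TPM difference was not tested. ID4 (ENSG00000172201.12) was at 0, 0 and 3 counts in TTC3 shRNA and 0, 5 and 0 counts in control libraries, too few for a test.

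**Figure D2:**
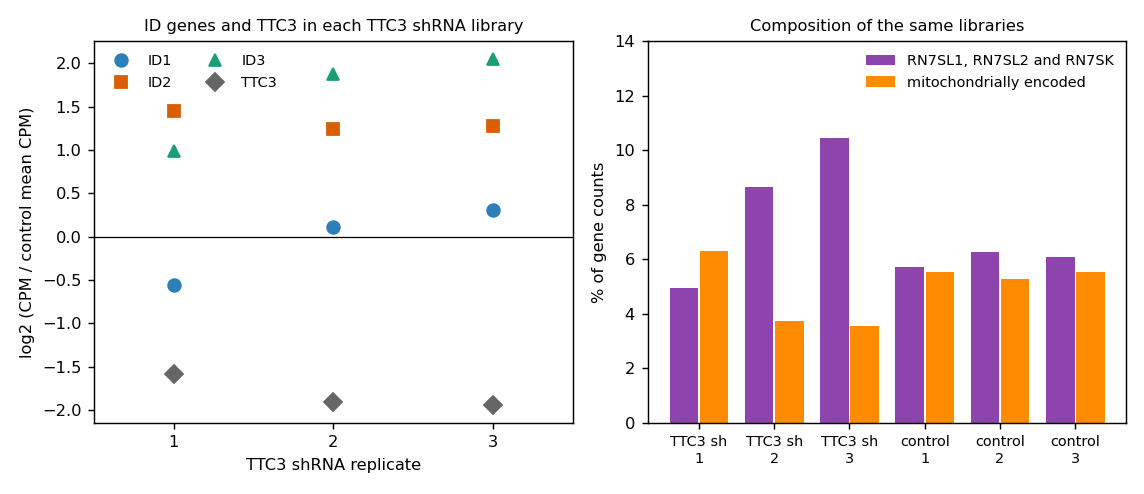
Left, log2 ratio of ID1, ID2, ID3 and TTC3 CPM in each TTC3 shRNA library to the control mean, and right, the percentage of gene counts from RN7SL1, RN7SL2 and RN7SK and from mitochondrially encoded genes in all 6 libraries. In replicate 1 ID1 lies at -0.56 and ID3 at 0.98, against 0.31 and 2.05 in replicate 3, and its mitochondrial share of 6.29% is the highest of the 6.

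ID1 and ID3 varied more between knockdown libraries than between control libraries. The highest-to-lowest ratio of CPM was 1.83 in TTC3 shRNA and 1.03 in control libraries for ID1, and 2.10 and 1.05 for ID3. For ID2 it was 1.15 and 1.08. As log2 ratios to the control mean, TTC3 shRNA replicates 1, 2 and 3 were at -0.56, 0.11 and 0.31 for ID1 and at 0.98, 1.88 and 2.05 for ID3. For BAMBI they were at -2.57, -2.45 and -2.39 and for GREM1 at -1.61, -1.65 and -1.69, so the modulators were lower by like amounts in all 3 libraries. Replicate 1 had the least ID1 and the largest mitochondrial share of all 6 libraries. Among the TTC3 shRNA libraries it also had the least ID3 and the smallest length trend. With the trend on gene length removed, the log2 fold change was -0.33 ± 0.13 (SE) for ID1 and 1.42 ± 0.20 for ID3. With the trend left in, it was -0.0021 ± 0.20 for ID1 and 1.71 ± 0.26 for ID3. The part of the mitochondrial share, and the cause of the spread of ID1 and ID3, was not tested. Among 11661 genes with a mean of at least 5 CPM, the patterns most like that of ID1 over the 6 libraries were those of SQSTM1 (Pearson r = 0.998), TMC6 (0.998) and H2AC25 (0.996), a description over libraries that share this composition.

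**Figure D3:**
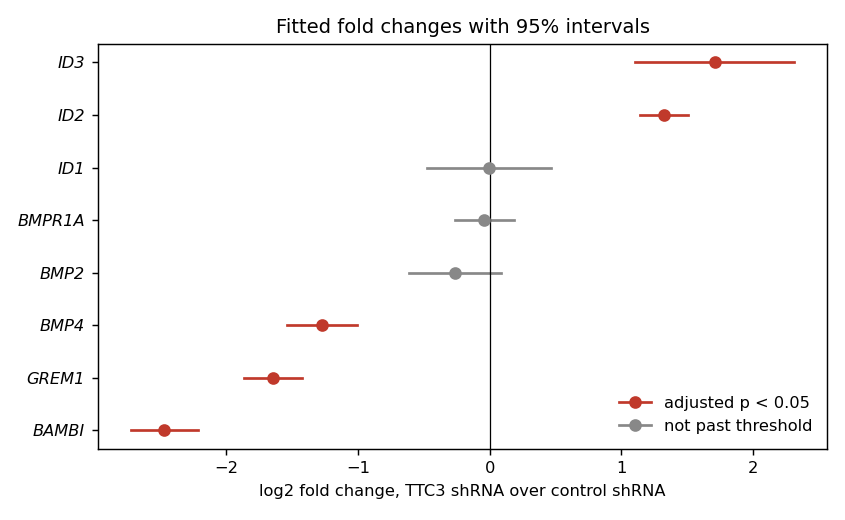
Log2 fold change of TTC3 shRNA over control shRNA for the 8 tested genes, with 95% intervals from the edgeR fit. The intervals of BAMBI, GREM1 and BMP4 lie below 0, those of ID2 and ID3 above 0, and those of BMP2, BMPR1A and ID1 include 0.

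To compare genes with each other, counts were divided by transcript length and expressed as a percentage of the ID1 level in the same library. The ID1 level per length itself differed between libraries, as given above, so these percentages also carry that difference. GREM1 and BMPR1A had no usable length. ID2 was at 50.4% ± 21.3 of the ID1 level per length in TTC3 shRNA and 18.6% ± 1.20 in control libraries (SD, n = 3 each). Its values in TTC3 shRNA replicates 1, 2 and 3 were 74.8%, 40.5% and 35.9%, all above control. ID3 was at 16.6% ± 1.37 of ID1 per length in TTC3 shRNA and 5.17% ± 0.0441 in control libraries, and here replicate 1 (15.0%) lay near the others (17.6% and 17.2%). BMP4 was at 1.49% ± 0.494 and 3.38% ± 0.0216 of ID1 per length, and BAMBI at 0.935% ± 0.252 and 4.93% ± 0.332. BMP2 was at 0.746% ± 0.212 in TTC3 shRNA and 0.852% ± 0.121 in control libraries. In TTC3 shRNA cells the order of mean levels per length was ID1, ID2, ID3, BMP4, BAMBI and BMP2. Within each TTC3 shRNA library BMP4 was above BAMBI and BAMBI above BMP2, although their ranges over libraries overlapped. In control cells the order was ID1, ID2, then ID3 and BAMBI, whose order changed between libraries, then BMP4 and BMP2.

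Taking ID1, ID2 and ID3 as a pool per length, ID1 made up 52.7%, 63.3% and 65.3% in TTC3 shRNA libraries and 80.0%, 81.6% and 80.8% in control libraries. ID2 contributed 29.5% ± 8.66 and 15.0% ± 0.827, and ID3 10.1% ± 1.88 and 4.18% ± 0.0508. For each of the 3 shares, which make up a whole and are not separate results, the groups did not overlap. The exact two-sided permutation test gave p = 0.1, the smallest that 3 against 3 libraries allow, so it could not pass 0.05.

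**Figure D4:**
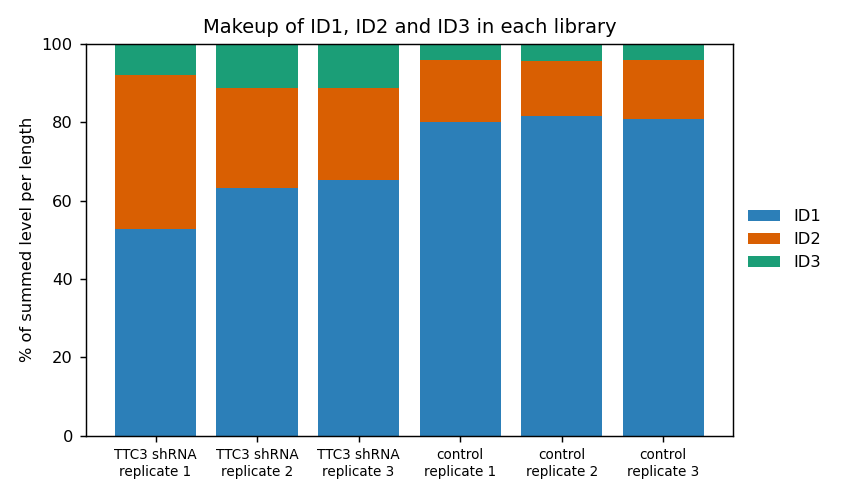
Share of ID1, ID2 and ID3 in their summed level per transcript length in each library, TTC3 shRNA libraries left of control libraries. ID1 holds 52.7% to 65.3% in TTC3 shRNA and 80.0% to 81.6% in control libraries, and ID2 is largest in TTC3 shRNA replicate 1 at 39.4%.

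At the transcript level 13 of 20 transcripts of the 10 genes could be tested and 3 passed, against 3.99% of all 53805 transcripts. The 20 are those whose identifiers matched GENCODE 29. For GREM1 only GREM1-202 had counts, with 2.09% of the gene's counts in TTC3 shRNA and 0.927% in control libraries. The transcripts with most GREM1 counts were therefore not examined. BAMBI-201 was lower by a log2 fold change of -2.49 ± 0.17 (edgeR adjusted p = 0.00455), ID2-203 was higher by 1.31 ± 0.11 (adjusted p = 0.00765) and ID3-201 by 1.68 ± 0.29 (adjusted p = 0.0451). ID2-203 held 96.4% of the gene's counts in TTC3 shRNA and 95.8% in control libraries. ID1-202 held 88.4% and 85.9% of ID1, and ID1-201 the rest. BMPR1A-201 held 56.9% and 48.0% of BMPR1A and BMPR1A-202 43.1% and 52.0%, and neither passed the test (edgeR adjusted p = 0.759 and 0.516). BMP2-201, with all counts of BMP2, did not pass either (edgeR adjusted p = 0.494). BMP7-201 and ID4-201 held all counts of their genes and were too low to be tested. BMP4 was divided unevenly between libraries: BMP4-202 had 203, 174 and 204 counts in TTC3 shRNA and 229, 676 and 828 in control libraries, and BMP4-205 had 185, 127 and 196 and 735, 365 and 101. The control libraries traded counts between these transcripts, and neither passed the test (edgeR adjusted p = 0.180 and 0.416). Leaving out any 1 control library left 1 transcript call. The count over all transcripts was as unstable: 2148 were called from all 6 libraries, 141 to 167 without any 1 control library, 391 and 517 without TTC3 shRNA replicates 2 and 3, and 6765 without TTC3 shRNA replicate 1.

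Beyond the 10 genes, 58 of 78 other genes of the pathway could be tested, of which 11 were higher and 16 lower in TTC3 shRNA cells (46.6%, against 33.6% of all genes), with a median log2 fold change of 0.01. The total was 17 without control replicate 2 or without control replicate 3 and 36 without TTC3 shRNA replicate 1. In those fits 18.5%, 18.4% and 54.1% of all genes passed. Lower calls numbered 10 without TTC3 shRNA replicate 2 and 9 without any 1 control library. By role, with all 6 libraries, calls made up 57.1% of tested ligands, 37.5% of receptors, 16.7% of SMADs and 50% of extracellular proteins. They made up 60% of intracellular regulators, 40% of targets and 60% of basic helix-loop-helix factors, against 33.6% of all genes tested. Each role held only 5 to 12 tested genes.

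Of 11 further ligands 7 were tested, 4 were lower and none higher. BMP3, a ligand that opposes osteogenic BMPs, averaged 0.546 CPM in TTC3 shRNA and 3.98 CPM in control libraries (log2 fold change -2.86 ± 0.15, edgeR adjusted p = 3.39e-05). BMP5 had 5 counts in the TTC3 shRNA libraries together and 120 in the control libraries (adjusted p = 0.0115), a call lost without control replicate 1. BMP8B averaged 1.58 and 2.34 CPM (log2 fold change -0.56, adjusted p = 0.0143, edgeR), and reads may be split with its paralog BMP8A. The BMP8B call was lost in 4 of the 6 fits that left out a library. BMP6 averaged 0.417 and 0.877 CPM (edgeR adjusted p = 0.0498), and the call was lost when any 1 library was left out.

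Of 10 other receptors and coreceptors 8 were tested, 3 were higher and none lower. ENG, the coreceptor endoglin, averaged 1.04 CPM in TTC3 shRNA and 0.327 CPM in control libraries (log2 fold change 1.67 ± 0.18, edgeR adjusted p = 0.000819). The type I receptor ACVR1 averaged 33.1 and 24.4 CPM (0.44 ± 0.08, adjusted p = 0.00524), and the type II receptor BMPR2 113 and 86.4 CPM (0.39 ± 0.09, adjusted p = 0.0186), the BMPR2 call being lost without any 1 control library. BMPR1B averaged 18.3 and 22.2 CPM (edgeR adjusted p = 0.0729). With libraries scaled by their totals alone, 2 receptors were higher and 1 lower. Of 6 SMADs 1 passed with TMM scaling, and 2 were lower with library totals or without TTC3 shRNA replicate 1. SMAD1, a BMP receptor substrate, was lower, at 15.2 and 22.9 CPM (log2 fold change -0.59 ± 0.08, edgeR adjusted p = 0.00253). The inhibitory SMAD6 and SMAD7 had log2 fold changes of -0.25 and -0.29 (edgeR adjusted p = 0.181 and 0.243).

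Of 18 extracellular antagonists and chordin-cleaving or related secreted proteins, 12 were tested, 5 were lower and 1 higher. NOG, which encodes noggin, was at 20.1, 32.2 and 38.5 CPM in TTC3 shRNA and 12.0, 12.6 and 12.8 CPM in control libraries (log2 fold change 1.28 ± 0.22, edgeR adjusted p = 0.00510). Its lowest knockdown value was again that of replicate 1, which still exceeded every control library. FST, the activin and BMP binding protein follistatin, averaged 221 CPM in TTC3 shRNA and 350 CPM in control libraries (-0.67 ± 0.07, edgeR adjusted p = 0.000705). CHRDL1, a chordin-like antagonist, had 0 counts in TTC3 shRNA and 118 in control libraries, at least 36.0-fold lower against a floor of 3 counts over the group (edgeR adjusted p = 0.00163). TLL1, a tolloid protease that cleaves chordin, averaged 9.04 and 17.1 CPM (-0.92 ± 0.13, edgeR adjusted p = 0.00249). FSTL1 (-0.22, adjusted p = 0.0258) and BMP1 (-0.23, adjusted p = 0.0375, edgeR) were lower by small amounts that were lost in 5 of the 6 fits that left out a library.

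Of 11 intracellular partners and regulators 10 were tested, 2 were higher and 4 lower. RUNX2, the osteoblast transcription factor that partners SMADs, averaged 4.09 CPM in TTC3 shRNA and 14.3 CPM in control libraries (log2 fold change -1.81 ± 0.15, edgeR adjusted p = 0.000275). FKBP1A, which encodes FKBP12, a guard of type I receptors, averaged 640 and 456 CPM (0.49 ± 0.06, adjusted p = 0.00134), and the SMAD corepressor gene SKI 241 and 172 CPM (0.49 ± 0.07, adjusted p = 0.00328). Its relative SKIL went the other way, at 47.9 and 82.2 CPM (-0.78 ± 0.14, edgeR adjusted p = 0.00657). SMURF1, a ubiquitin ligase of SMAD1 and SMAD5, averaged 69.8 and 88.7 CPM (-0.35 ± 0.07, edgeR adjusted p = 0.00907), a call lost without control replicate 2 or control replicate 3, and its relative SMURF2 81.5 and 94.2 CPM (adjusted p = 0.150). LEMD3, an inner nuclear membrane protein that binds SMADs, was lower by -0.22 (adjusted p = 0.0483, edgeR) and was lost in 5 of the 6 fits.

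Of 14 other known target genes 10 were tested, 3 were higher and 1 lower. HEY1, a transcriptional repressor also driven by Notch, averaged 51.7 CPM in TTC3 shRNA and 28.5 CPM in control libraries (log2 fold change 0.86 ± 0.09, edgeR adjusted p = 0.000652). The transcription factor gene GATA3 averaged 2.87 and 1.56 CPM (0.88 ± 0.14, adjusted p = 0.00359), the homeobox gene MSX1 6.97 and 4.81 CPM (0.53 ± 0.16, adjusted p = 0.0392) and the repressor gene TBX3 134 and 177 CPM (-0.41 ± 0.05, adjusted p = 0.00184). The MSX1 call was lost in 5 of the 6 fits that left out a library. Lower calls numbered 2 with library totals or with the length trend removed. Of the basic helix-loop-helix factors that meet ID proteins, 5 of 8 were tested: TCF3, an E protein, averaged 144 and 103 CPM (0.49 ± 0.09, edgeR adjusted p = 0.00813) and HES1 55.9 and 38.2 CPM (0.55 ± 0.13, adjusted p = 0.0180), while TCF12, another E protein, averaged 62.8 and 85.9 CPM (-0.45 ± 0.10, adjusted p = 0.0153). The TCF12 and HES1 calls were each lost in 4 of the 6 fits, those without TTC3 shRNA replicate 2 and without any 1 control library.

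**Figure D5:**
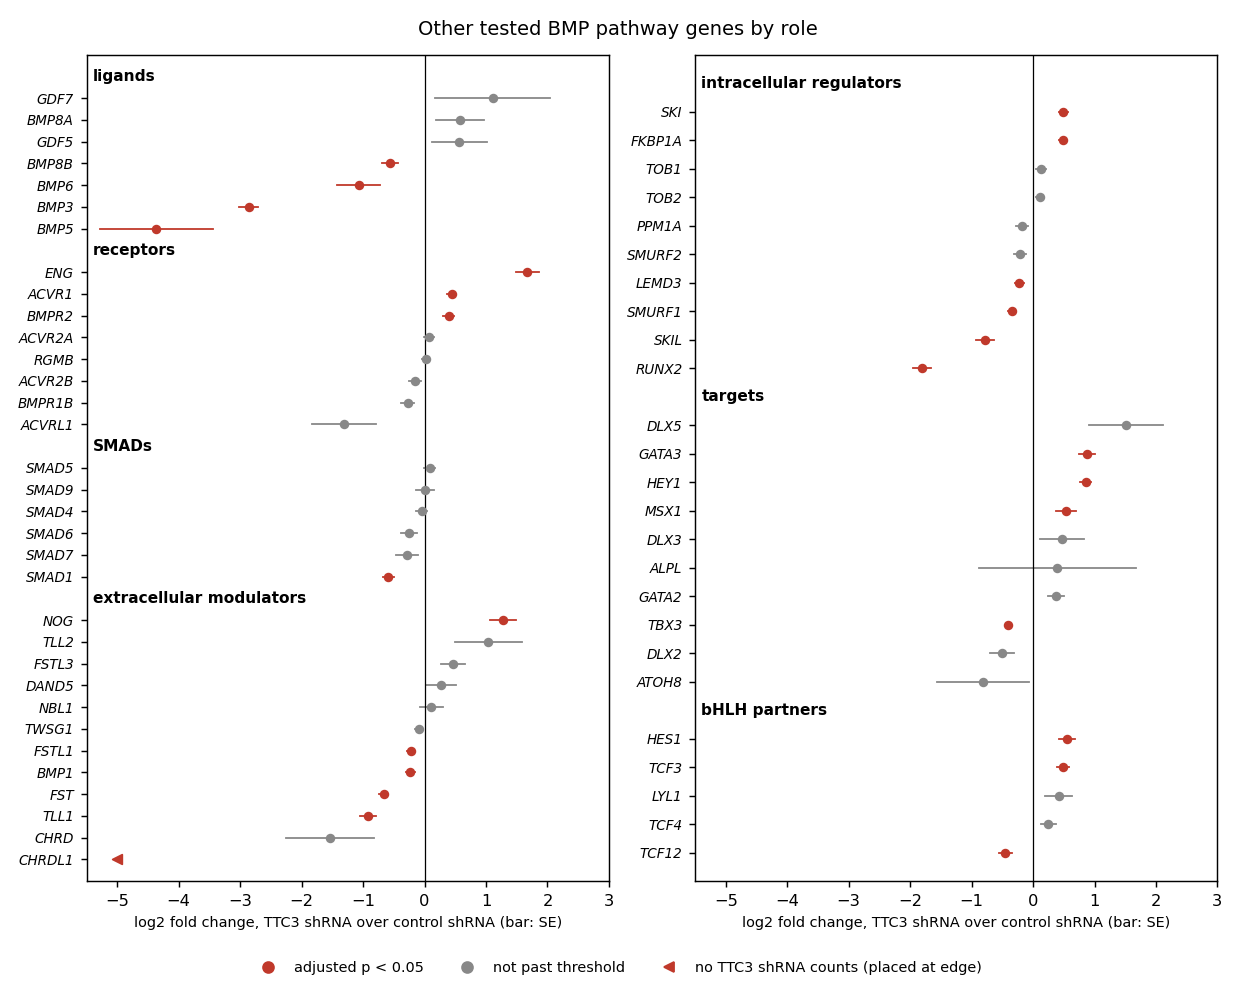
Log2 fold change of TTC3 shRNA over control shRNA (bars, SE) for the 58 other tested BMP pathway genes by role, with red points for an adjusted p below 0.05 and grey for the rest, and CHRDL1, which had no TTC3 shRNA counts, at the axis edge. Among further ligands 4 red points lie below 0, among receptors 3 lie above 0, and extracellular modulators and intracellular regulators have red points on both sides. Of all genes tested, 15.7% passed as higher and 17.8% as lower.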

How the data were processed

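RNA-seq of PC3 cells with an shRNA against TTC3 (3 libraries) or a control shRNA (3 libraries) was analysed from the estimated counts per gene and per transcript that the authors deposited, which were whole numbers not scaled for library size. Trim Galore, STAR, StringTie and hg38 were used, per the submitters' processing notes, without versions, annotation or strand setting. Groups and replicate numbers came from the sample titles.

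The quasi-likelihood test of edgeR 4.0.16 (R 4.3.3) was applied to 24325 genes and, in its own fit, to 53805 transcripts kept by filterByExpr at its minimum count of 10 and minimum total of 15. TMM factors were 0.924 to 1.05, and glmQLFit and glmQLFTest compared TTC3 shRNA with control shRNA, with Benjamini-Hochberg adjustment over all features. The SE is the size of the log2 fold change divided by the square root of F. Where a group had 0 counts, the fold was taken against 3 counts for the whole group, a floor that covers counting error only. Lengths and positions came from GENCODE 29, matching 58207 genes and 98286 transcripts by identifier, so lengths are approximate where versions differ. A level per length was given only where transcripts with a length held at least 90% of the gene's counts. Alternatives used DESeq2 1.42.0, limma 3.58.1 and other scalings, filters and thresholds. The fit was tested on simulated data with 200 changed genes.

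The members and pathway lists were chosen with earlier results of these data known. Named genes are TTC3, all members, up to 4 tested genes per list by adjusted p plus all called genes of a direction for which the text counts 5 or fewer, the 3 genes most like ID1, and transcripts with at least 10% of a gene's counts. SMURF2 and the antisense genes and pseudogenes fall outside that rule and were chosen after their values were seen.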

Additional observations from a re-analysis of the deposited data

How the results depend on the processing

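The calls of BMP4, BAMBI, ID2 and ID3 held under all 17 alternatives and that of GREM1 under the 16 that gave it a value, and without TTC3 shRNA replicate 1 the count was 7, with ID1 and BMPR1A added. The fit without that library called 13739 of all genes (54.1%), against 8165 (33.6%) with all libraries. Library totals alone shifted the median of all genes by -0.13 on the log2 scale, and removal of the length trend by -0.12. Relative to those shifts ID1 was at -0.01 and -0.22, ID2 at 1.33 and 1.22 and ID3 at 1.69 and 1.54, while GREM1 and BMPR1A had no length and no value with the length trend removed. The ID1 fold change of -0.0021 turned to 0.0065 with DESeq2 size factors, 0.0025 without a filter, 0.0066 in the DESeq2 test, 0.23 without TTC3 shRNA replicate 1 and 0.012 without control replicate 2 (range -0.17 to 0.23 when each library was left out). BMPR1A ran from -0.13 to 0.032 in the same way, with 0.0038 and 0.032 without TTC3 shRNA replicates 2 and 3. The cause was not tested.

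A test against a fold of 1.5 called 2033 genes of all (466 higher, 1567 lower) and 7 other pathway genes (3 higher, 4 lower), and an adjusted p of 0.01 called 4082 (1688 and 2394) and 17 pathway genes (9 lower), as stricter rules by construction. Library totals called 2518 higher and 5356 lower genes, so that 32.0% of calls were higher, against 46.9% with TMM and 38.1% with the length trend removed. Leaving out each library gave 4546 to 13739 genes (1835 to 6674 higher and 2711 to 7065 lower), 17 to 36 pathway genes (9 to 20 lower) and 1 to 3 member transcripts. By role, those fits gave 1 to 3 lower ligands, 3 to 6 lower antagonists and 2 to 6 lower intracellular regulators.

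Same-numbered libraries deviated together with correlations of 0.13, 0.12 and 0.03, so the numbers were not taken as pairs, and not every library correlated best with its own number. With the replicate number as a block the count of members stayed 5, and 0 transcripts passed, of the 10 genes or of all, against 3 and 2148 without it. Lower antagonists numbered 3 with the block and 5 without it (FSTL1 and BMP1 lost), lower intracellular regulators 3 and 4 (LEMD3 lost), and higher targets 5 and 3. Depth limited only the genes with few counts, such as BMP7 and ID4.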
